A study of Mus musculus with 48 samples.

Results

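Transcription start activity of 7 genes for inhibitory receptors other than PD-1 was followed in mouse T cells over a dose series of T cell receptor (TCR) stimulation, with and without PD-1 engagement. The genes were Ctla4, Lag3, Havcr2 (TIM-3), Tigit, Cd160, Btla and 4632428N05Rik (VISTA, RefSeq symbol Vsir), and every tag cluster whose symbol in the deposited tables was 1 of these was taken. In the table of primary CD4+ T cells all 7 genes were found, with 10 clusters among 17272 clusters and 10219 genes. For the hybridoma the table held 4 of the 7 (Tigit, Cd160, Btla and 4632428N05Rik), with 5 clusters among 18025 clusters and 10098 genes. Ctla4, Lag3 and Havcr2 had no cluster in the hybridoma table, and since no listed cluster stayed under 3.01 RPM in all of its libraries, a low level of these 3 genes in that line cannot be told from none.

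The libraries were made by CAGE (cap analysis of gene expression), which counts the 5′ ends of capped RNA, so that a level counts starts and does not grow with transcript length. Levels are in RPM (tags per M tags of the library), as scaled by the authors within each table. The hybridoma was DO11.10, a T cell line (strain label BALB/c x AKR/J) whose receptor sees an ovalbumin peptide, and it received this peptide (pOVA) at 0, 1, 10, 100, 1000 or 10000 nM. The primary CD4+ T cells came from BALB/cCrSlc mice and received 2C11, an antibody to CD3, at 0, 10, 100, 1000 or 10000 ng/ml. Each dose was given without and with engagement of PD-1, here called unengaged and engaged, which makes 12 groups and 26 libraries in the hybridoma and 10 groups and 22 libraries in CD4 cells. Groups held 2 libraries, and 3 at the top dose. How PD-1 was engaged, for how long the cells were stimulated, and whether replicates were separate cultures or animals are not given in the labels, so p-values measure the spread between these libraries.

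Inhibitory receptors sit on the T cell surface and damp signals from the TCR and its costimulators, and many of them are themselves turned on by TCR signals. Ctla4 competes with the costimulator Cd28 for the ligands Cd80 and Cd86, Tigit competes with Cd226 for the poliovirus receptor Pvr, and Lag3 binds MHC class II. Btla and Cd160 share the ligand Tnfrsf14 (HVEM), Havcr2 binds galectin-9 (Lgals9) among others, and VISTA is a B7-like molecule found on resting T cells and myeloid cells. Together with PD-1 they are known as markers of chronically stimulated T cells, and several of them are targets of blocking antibodies.

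The depth recovered from the values was 7.79 to 19.7 M tags per library for DO11.10 and 4.42 to 22.8 M for CD4 cells, so that 3 tags were worth 0.152 to 0.385 RPM in the first and 0.132 to 0.678 RPM in the second. T cell markers were abundant in both systems (7 of 8 listed genes in the hybridoma table, summed level 1210 to 1891 RPM; 8 of 8 in CD4 cells, 2987 to 4843 RPM), although Cd4 itself had no cluster in the hybridoma table. Regulatory T cell markers (Foxp3, Ikzf2, Ikzf4, Il2ra and Nrp1) and both CD8 markers were not in the hybridoma table. The 2 dose 0 hybridoma libraries with replicate number 2 stood apart by their B cell markers, whose mean log2(RPM + 1) level over 6 genes was 4.85 unengaged and 4.71 engaged, against 1.77 to 2.96 in the other 24 libraries. The counts of all genes at the unengaged top dose are given without them as well, and so are member calls that change. Other hybridoma results that rest on dose 0, those of the gene lists among them, are given with them only. In bulk RNA, fewer cells that use a start and less RNA per cell cannot be told apart.

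The start sites lie in promoters of different base composition, and the sequences of the members whose level moved most are shown here so that they can be read beside the dose curves. RefSeq holds 7 promoters for 6 of the 7 genes (250 bases before to 50 after the annotated start, build GRCm38.p6), with none listed for Lag3. Cd160 has 2 of them, and both are printed, since the deposited clusters are in build mm9 and were not converted. Capitals mark matches, on either strand, to an AP-1 site (TGANTCA), the NFAT core (GGAAA, also read as TTTCC), an NR4A site (AAGGTCA) or an EGR core (GCGTGGG), factors that act in TCR signalling. Positions are counted from 1 at the 5′ end of the printed sequence.
Tigit, chr16:43664135-43664434, minus strand: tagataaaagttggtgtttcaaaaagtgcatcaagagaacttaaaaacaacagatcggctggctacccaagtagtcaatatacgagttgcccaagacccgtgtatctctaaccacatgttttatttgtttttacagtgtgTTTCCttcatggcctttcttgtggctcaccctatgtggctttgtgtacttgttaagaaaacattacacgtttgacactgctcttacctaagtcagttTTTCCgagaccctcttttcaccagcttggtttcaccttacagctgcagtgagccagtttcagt
Havcr2, chr11:46454681-46454980, plus strand: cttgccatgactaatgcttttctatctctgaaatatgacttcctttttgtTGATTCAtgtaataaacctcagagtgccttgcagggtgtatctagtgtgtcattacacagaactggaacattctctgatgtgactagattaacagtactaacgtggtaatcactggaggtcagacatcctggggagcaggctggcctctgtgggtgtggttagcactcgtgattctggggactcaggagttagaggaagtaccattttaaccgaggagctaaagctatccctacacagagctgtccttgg
Cd160, first entry, chr3:96829302-96829601, minus strand: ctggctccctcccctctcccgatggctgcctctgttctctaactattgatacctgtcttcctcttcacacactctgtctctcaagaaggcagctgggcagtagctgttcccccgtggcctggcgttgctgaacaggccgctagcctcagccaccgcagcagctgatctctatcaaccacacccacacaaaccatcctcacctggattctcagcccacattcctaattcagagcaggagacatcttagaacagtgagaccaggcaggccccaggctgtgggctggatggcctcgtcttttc
Cd160, second entry, chr3:96814472-96814771, minus strand: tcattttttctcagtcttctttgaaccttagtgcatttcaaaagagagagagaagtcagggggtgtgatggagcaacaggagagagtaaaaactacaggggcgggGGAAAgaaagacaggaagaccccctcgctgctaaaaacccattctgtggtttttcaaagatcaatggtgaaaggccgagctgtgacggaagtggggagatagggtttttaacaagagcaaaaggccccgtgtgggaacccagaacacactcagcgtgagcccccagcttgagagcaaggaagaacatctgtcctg
4632428N05Rik, chr10:60346601-60346900, plus strand: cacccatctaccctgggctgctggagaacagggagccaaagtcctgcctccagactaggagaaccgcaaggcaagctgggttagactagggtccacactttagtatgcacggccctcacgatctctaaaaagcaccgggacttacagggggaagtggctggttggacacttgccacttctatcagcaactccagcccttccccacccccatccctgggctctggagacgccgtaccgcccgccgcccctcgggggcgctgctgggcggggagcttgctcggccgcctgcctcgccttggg

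Among all 32851 RefSeq promoters of this length, 61.3% held an NFAT core, 7.81% an AP-1 site, 5.04% an EGR core and 4.72% an NR4A site. Tigit held 2 NFAT cores, starting at bases 141 and 238, Ctla4 1 at base 107, and the second Cd160 entry 1 at base 106. Havcr2 held 1 AP-1 site, at base 51, and no NFAT core. The 4632428N05Rik, Btla and first Cd160 promoters held none of these letters, and no member promoter held the NR4A or EGR letters. The 4632428N05Rik promoter was the richest in G and C of the members, at 63.7% with 15 CpG, against a median of 52.7% and 7 CpG over all promoters. Tigit (41.3%, 5 CpG), Ctla4 (42.0%, 8 CpG) and Havcr2 (45.3%, 3 CpG) were below that median in G and C. A match is a description of letters in this window, not a bound site.

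In the files the Tigit cluster lay on mm9 chromosome 16, 43664227 to 43664267, minus strand, in CD4 cells, and from 43664229 to the same end in the hybridoma. The Cd160 cluster was at chromosome 3, 96618443 to 96618460, minus strand, in CD4 cells, and 96618444 to 96618458 in the hybridoma. The 4632428N05Rik cluster was at chromosome 10, starting at 59809650 on the plus strand and ending at 59809673 in CD4 cells and 59809662 in the hybridoma. Havcr2 was at chromosome 11, 46268386 to 46268479, plus strand, and Ctla4 at chromosome 1, 60965849 to 60965939, plus strand. Btla had 2 clusters in the hybridoma and 3 in CD4 cells on chromosome 16, plus strand, and Lag3 had 2 on chromosome 6, minus strand. Cluster positions are as deposited. Whether they count from 0 or 1 is not stated, and the gene of each cluster is the authors' assignment.

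All 4 receptors measured in the hybridoma rose at 10000 nM against dose 0 (limma, adjusted p under 0.05). Tigit, Cd160 and 4632428N05Rik rose by more than 2 on the log2(RPM + 1) scale, and Btla by less than 1. Over all 10094 genes tested, 8.09% were called higher and 20.8% lower, and the median log2 difference was 2.25 for the 4 members and -0.18 for all genes. The 817 genes called higher and 2095 lower became 1298 and 1432 with quantile normalization and 1356 and 1705 with edgeR, and without the 2 B-marker-rich libraries 742 and 1001. Every call of Tigit, Cd160 and VISTA at this dose held in these fits.

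Tigit, the receptor that competes with Cd226, gave 3.89 and 2.89 RPM at dose 0, and 26.2, 21.4 and 21.4 RPM at 10000 nM. The groups were far apart, at 3.39 ± 0.707 RPM (SD, n = 2) and 23.0 ± 2.76 RPM (n = 3), a log2 difference of 2.46 ± 0.16 (SE; limma adjusted p = 2e-09). Most of this rise was in place at 100 nM, with 22.1 and 17.2 RPM there and 22.2 and 19.3 RPM at 1000 nM, whereas the 1 and 10 nM libraries stayed between 3.80 and 5.12 RPM. The Tigit curve was thus close to a step between 10 and 100 nM. At 100 nM it had reached 82.6% of its rise at the top dose.

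4632428N05Rik (VISTA) gave 5.29 and 4.13 RPM at dose 0, and 30.4, 19.5 and 18.9 RPM at 10000 nM. The 3 top-dose libraries differed among themselves by more than 10 RPM, but all lay above dose 0. The log2 difference was 2.04 ± 0.23 (limma adjusted p = 3.45e-06). At 100 nM both libraries gave close to the same level, 11.9 and 11.8 RPM, and at 1000 nM they gave 25.7 and 18.8 RPM. VISTA thus had 39.2% of its top-dose rise at 100 nM and 96.3% at 1000 nM, a later curve than that of Tigit by group means.

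Cd160, a receptor of the HVEM system, started from almost nothing: 0 and 0.12 RPM at dose 0, which is 0 and 2 tags. It then gave 1.87 and 1.05 RPM at 100 nM, 2.52 and 2.47 RPM at 1000 nM, and 3.96, 4.38 and 6.68 RPM at 10000 nM. The top-dose libraries held 150 tags in 31.3 M and the dose 0 libraries 2 in 27.7 M, a ratio of 66.4 with an exact 95% interval of 18.1 to 553 that covers counting error only. The fitted log2 difference of 2.48 ± 0.23 (limma adjusted p = 2.11e-07) is on the log2(RPM + 1) scale and understates such a change. Cd160 had 49.2% of its top-dose rise at 1000 nM, and all 3 top-dose libraries lay above both at 1000 nM.

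Btla, the other HVEM receptor, had the smallest response of the 4. It gave 5.19 and 5.42 RPM at dose 0 and 8.82, 10.4 and 6.68 RPM at 10000 nM, with no overlap, and a log2 difference of 0.59 ± 0.17 (limma adjusted p = 0.0163). The call did not hold without either dose 0 library, numbers 1 and 2 (adjusted p = 0.0634 and 0.067), nor without top-dose library 2 (0.0655) or without both B-marker-rich libraries (0.0648), and the log2 difference then lay between 0.46 and 0.62. The hybridoma clusters of Btla were fitted one by one as well. The cluster from 45224229 to 45224294 gave 1.79 ± 0.559 RPM at dose 0 and 2.83 ± 1.10 at the top, a log2 difference of 0.43 ± 0.29 that was not called (limma adjusted p = 0.262). The cluster from 45224442 to 45224472 gave 3.52 ± 0.396 and 5.81 ± 0.776 RPM (0.59 ± 0.15, limma adjusted p = 0.00643), against 30% of all 18014 clusters called in either direction.

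**Figure D1:**
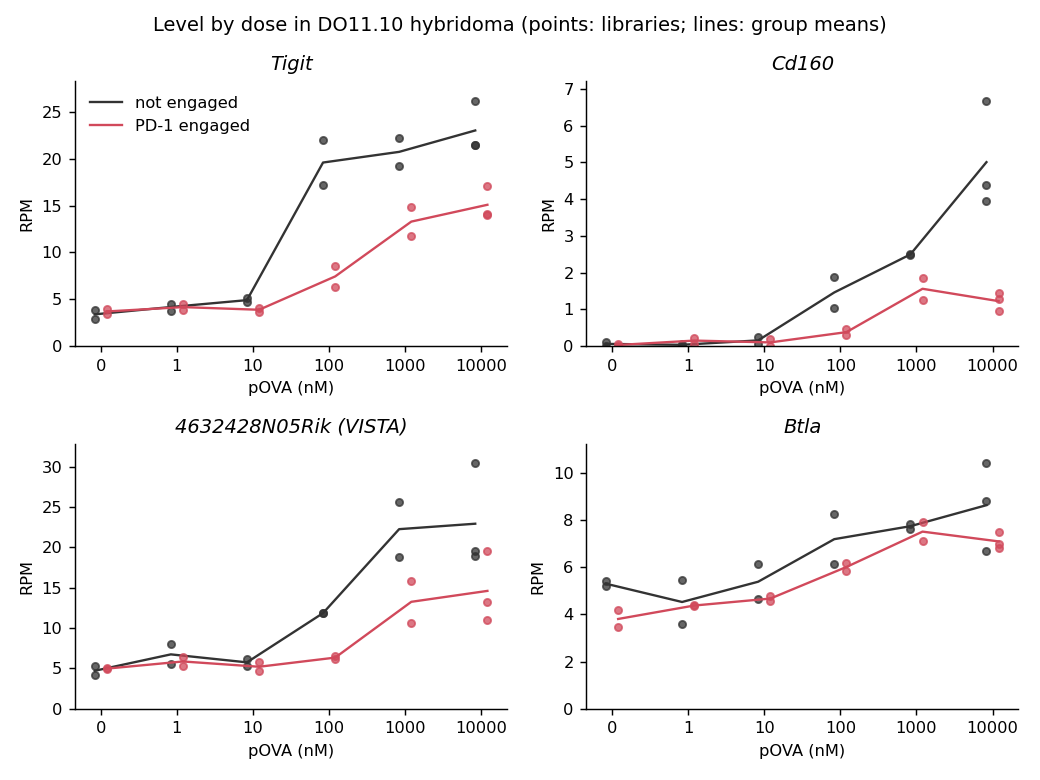
Level (RPM, y axis from 0) against pOVA dose (nM, equally spaced doses) in the DO11.10 hybridoma, unengaged (black) and PD-1 engaged (red). Points are libraries and lines join group means. Tigit steps up between 10 and 100 nM without engagement, and its 3 engaged libraries at 10000 nM, 14.0 to 17.1 RPM, lie below the unengaged 21.4 to 26.2 RPM.

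At the lower doses none of the 4 members was called at 1 nM (background 0%; 1017 genes at an unadjusted p under 0.05; edgeR 0 genes called) or 10 nM (0.0297%, 3 genes). At 100 nM Tigit, Cd160 and VISTA were called higher, by 2.23 ± 0.18, 1.20 ± 0.25 and 1.18 ± 0.26 on the log2 scale, while 6.03% of all genes were called in either direction. VISTA lost this call without the B-marker-rich libraries (log2 difference 1.03, limma adjusted p = 0.102), and without either 100 nM library (adjusted p = 0.0688 and 0.0678). Cd160 lost it without 100 nM library 1 (0.95, adjusted p = 0.121). Of all genes at 100 nM, 287 were called higher and 322 lower, which became 432 and 311 with quantile normalization. At 1000 nM the same 3 were called (Tigit 2.31 ± 0.18, VISTA 2.02 ± 0.26, Cd160 1.72 ± 0.25) with a background of 30.6%, and Btla gave 0.47 ± 0.19 (adjusted p = 0.0673), which was called with quantile normalization (0.84, adjusted p = 0.00161) and edgeR (0.77, 0.00835). The 721 genes called higher and 2365 lower at this dose became 1273 and 1365 with quantile normalization.

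Half-maximal doses, read by interpolation on log10 dose from unengaged group means for members whose top-dose mean was at least 2 times that of dose 0, ordered the receptors as Tigit (36.7 nM), VISTA (154 nM) and Cd160 (1036 nM). Leaving out 1 library at a time gave 30.5 to 47.6 nM for Tigit, 102 to 193 nM for VISTA and 429 to 1256 nM for Cd160, ranges that do not overlap. The Cd160 value rests on top-dose library 3, without which it was 429 nM, and the VISTA value of 102 nM came from leaving out top-dose library 1. These doses are descriptions without a test.

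PD-1 engagement in the hybridoma lowered 3 of the 4 receptors when averaged over the 5 stimulated doses: Tigit, Cd160 and VISTA. Over all genes, 0.872% were called lower and 0.0594% higher. The median log2 difference of the 4 members was -0.50, and that of all genes was -0.003. Engaged and unengaged hybridoma libraries of the same dose and number deviated together, so fits that pair them are given beside the others where they change a call. The labels do not say that these libraries belong together, so calls made only with pairing depend on that assumption. With this pairing 201 genes were called higher and 456 lower, in place of 6 and 88.

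Tigit fell by 0.55 ± 0.08 on the log2 scale over the stimulated doses (limma adjusted p = 0.000508), and the call held in each of the 30 alternative fits. At 100 nM the engaged libraries gave 8.53 and 6.36 RPM against 22.1 and 17.2 RPM unengaged, a log2 difference of -1.29 ± 0.18 (limma adjusted p = 0.000758) at a dose where 0.495% of genes were called. Without unengaged library 1 it was -1.12 (adjusted p = 0.0506; with pairing of all libraries 1.34e-05). The engaged Tigit curve lay lower at 1000 nM too, with 14.9 and 11.8 RPM, and at 10000 nM, with 17.1, 14.2 and 14.0 RPM, and in neither case did the groups overlap. These differences, -0.61 ± 0.18 and -0.58 ± 0.15, were not called without pairing (limma adjusted p = 0.514 and 0.133) and were called with it (0.00697 and 0.0026). Without pairing 0.0793% of genes were called at 1000 nM (1 higher and 7 lower) and 0.406% at 10000 nM (7 and 34). With it 537 were called higher and 204 lower at 1000 nM, where most calls were thus higher, 93 and 161 at 10000 nM, and 46 and 380 at 100 nM.

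VISTA fell by 0.49 ± 0.11 over the stimulated doses (limma adjusted p = 0.0387; 0.000159 with pairing). Without pairing the call was lost in 16 of the 22 fits that leave out 1 library (adjusted p up to 0.133), with the log2 difference between -0.54 and -0.43 in all 22. It held without unengaged library 2 at 1, 1000 or 10000 nM or library 3 at 10000 nM, and without engaged library 1 at 1000 or 10000 nM. Its engaged libraries gave 6.11 and 6.58 RPM at 100 nM, 15.8 and 10.7 RPM at 1000 nM, and 19.6, 13.2 and 11.06 RPM at 10000 nM. They lay below the unengaged ones at 100 and 1000 nM, and overlapped them at 10000 nM, where the highest engaged library, 19.6 RPM, was above 2 of the 3 unengaged ones. The differences at these doses were -0.81 ± 0.26, -0.71 ± 0.26 and -0.62 ± 0.21, none called without pairing (limma adjusted p = 0.407, 0.836 and 0.63) and all called with it (0.00366, 0.00917 and 0.00761).

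Cd160 fell by 0.52 ± 0.11 (limma adjusted p = 0.0183), and at 10000 nM by 1.41 ± 0.21 (adjusted p = 0.00198). There the engaged libraries gave 1.45, 1.27 and 0.95 RPM, all below the lowest unengaged one of 3.96 RPM. At 100 nM they gave 0.470 and 0.290 RPM against 1.87 and 1.05, and at 1000 nM 1.86 and 1.26 RPM against 2.52 and 2.47, which do not overlap but were not called (limma adjusted p = 0.356 and 1.00; 0.0799 and 0.28 with pairing). Cd160 lost the averaged call in 5 of the 22 fits that leave out 1 library (adjusted p up to 0.0757): without unengaged library 1 at 10 nM or at 100 nM, and without engaged library 1 at 1 or 10 nM or library 2 at 1000 nM. It was not called by edgeR on recovered tags either (-0.67, adjusted p = 0.968), where doses with 0 to 4 tags a library enter the average.

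Btla gave -0.13 ± 0.08 under engagement (limma adjusted p = 1.00; 0.273 with pairing), and its engaged and unengaged libraries overlapped at every stimulated dose. By cluster, 3 of the 5 hybridoma clusters were called lower, those of Tigit, Cd160 and VISTA and neither of Btla, against 1.82% of all clusters in either direction. No member was called at dose 0 (background 0%; 68 genes at an unadjusted p under 0.05; edgeR 0 called), 1 nM (0%; 58 genes; edgeR 0 called) or 10 nM (0.0396%). At dose 0 the differences ran from -0.39 ± 0.19 for Btla to 0.11 ± 0.18 for Tigit. The engagement effect under stimulation minus that at dose 0 was called for no gene without pairing (limma, background 0%, 110 genes at an unadjusted p under 0.05; edgeR 0 genes, 116 at an unadjusted p under 0.05), for 7 genes with pairing, all lower and none a member, and for 3 genes, 1 higher and 2 lower, without unengaged dose 0 library 1. For Tigit it was -0.66 ± 0.19 (adjusted p = 1.00; 0.0618 with pairing).

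As a description without a test, the summed rise over the unengaged dose 0 level was smaller in engaged group means by 64.8% for Cd160, 52.7% for VISTA and 51.5% for Tigit. Leaving out 1 library gave 61.2 to 68.2%, 47.1 to 58.4% and 48.7 to 54.3%. At 100 nM it was smaller by 77.1% for Cd160, 77.1% for VISTA and 75.0% for Tigit, at 1000 nM by 38.4%, 51.3% and 42.9%, and at 10000 nM by 76.5%, 45.7% and 40.4%. By group means, all 3 shares were thus lower at 1000 than at 100 nM, and that of Cd160 was high again at 10000 nM. All 4 receptors were still called higher at 10000 nM than at dose 0 among engaged libraries: Tigit by 1.77 ± 0.16, VISTA by 1.35 ± 0.23, Cd160 by 1.10 ± 0.23 and Btla by 0.75 ± 0.17, where 7.05% of genes were called higher and 19.3% lower (712 and 1949 genes; 1257 and 1238 with quantile normalization). The engaged minus unengaged response itself was called for none of the 4 (background 0.0594%), with -1.37 ± 0.32 for Cd160 (limma adjusted p = 0.389; 0.0973 with pairing) and -0.68 ± 0.23 for Tigit (1.00; 0.0566 with pairing).

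In primary CD4+ T cells the same stimulation question gave a split among the 7 receptors. At 10000 ng/ml 2C11 Cd160, Havcr2, Tigit and Btla rose, Ctla4 fell, and VISTA and Lag3 were not called. Of 10217 genes tested, 27.5% were called higher and 40.1% lower, so calls were common, and the median log2 difference was 1.06 for the 7 members and -0.15 for all genes.

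Havcr2, which encodes TIM-3, had 6 and 2 tags at dose 0 (0.429 and 0.230 RPM) and none in any of the 4 libraries at 10 ng/ml, where 3 tags, the limit that a count of 0 allows, would be 0.284 to 0.348 RPM. It gave 1.42 and 1.20 RPM at 100 ng/ml, 4.94 and 5.29 RPM at 1000 ng/ml, and 7.93, 6.45 and 9.16 RPM at 10000 ng/ml. Each step of dose from 100 ng/ml on lay above the one before with no overlap. Top-dose over dose 0 tags gave a ratio of 20.7 (exact 95% interval 10.4 to 48.5, counting error only), and the fit 2.73 ± 0.18 (limma adjusted p = 1.61e-10).

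Cd160 gave 1.00 and 1.26 RPM at dose 0, 4.45 and 8.99 RPM at 100 ng/ml, 14.1 and 13.4 RPM at 1000 ng/ml and 15.0, 13.7 and 16.4 RPM at 10000 ng/ml. Its fitted rise was 2.91 ± 0.21 (limma adjusted p = 3.49e-10), on a scale that compresses low genes more. By summed tags the top dose was 13.2 times dose 0 for Cd160 (95% counting interval 8.84 to 20.5) and 20.7 times for Havcr2 (10.4 to 48.5), and these intervals overlap. The 1000 and 10000 ng/ml libraries overlapped. Tigit started from a higher level, 41.7 and 39.5 RPM, and reached 74.5 and 76.6 RPM at 100 ng/ml, 120.6 and 111.2 RPM at 1000 ng/ml and 110.4, 110.2 and 121.3 RPM at 10000 ng/ml. Its log2 difference was 1.47 ± 0.11 (limma adjusted p = 8.66e-10), with no further rise between the top doses.

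Btla gave 6.58 and 7.003 RPM at dose 0, 15.3 and 18.0 RPM already at 100 ng/ml, and 15.3, 17.2 and 13.5 RPM at 10000 ng/ml (1.06 ± 0.19, limma adjusted p = 6.88e-05). All 3 of its CD4 clusters were called higher at the top dose, against 64.5% of 17269 clusters called in either direction. The cluster from 45224229 rose from 4.40 ± 0.762 to 8.37 ± 0.301 RPM, the one from 45224440 from 2.06 ± 0.318 to 4.62 ± 1.38 RPM, and the single-base one at 45224699 from 0.330 ± 0.141 to 2.33 ± 0.772 RPM. The last took 4.85% of the gene's level at dose 0 and 15.2% at the top. Whether this share differs between the groups was not tested, and the dose 0 value rests on few tags.

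Ctla4 moved the other way, with lower group means at each higher dose. It gave 66.2 and 73.8 RPM at dose 0, 57.9 and 60.1 RPM at 10 ng/ml, 51.1 and 44.9 RPM at 100 ng/ml, 34.6 and 29.7 RPM at 1000 ng/ml and 29.9, 28.1 and 29.4 RPM at 10000 ng/ml. Neighbouring doses did not overlap except the top pair. The fall was 1.24 ± 0.11 on the log2 scale (limma -1.24, adjusted p = 6.26e-09). Ctla4 is known to be abundant in regulatory T cells, and of 5 markers of these cells 3 were in the CD4 table. Of these, Foxp3, their defining factor, went from 30.7 to 22.8 RPM (-0.41 ± 0.15, limma adjusted p = 0.0191) and Il2ra, also a gene of activated T cells, from 96.2 to 437.9 RPM, so that the sum of the list rose from 122.5 to 137.7 RPM at dose 0 to 448.4 to 486.4 RPM at the top dose. The part of the share of regulatory T cells in the fall of Ctla4 was not tested.

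Lag3 was the most abundant of the 7 and had no steady trend: 198.5 and 190.4 RPM at dose 0, 138.6 and 173.4 RPM at 10 ng/ml, 233.7 and 234.5 RPM at 100 ng/ml, 199.2 and 197.1 RPM at 1000 ng/ml and 156.9, 180.5 and 177.2 RPM at 10000 ng/ml. The top dose lay 0.18 ± 0.11 below dose 0 on the log2 scale (limma -0.18, adjusted p = 0.145), a difference that was called after quantile normalization (-0.34, adjusted p = 0.00511). Its main cluster, 124861646 to 124861712 with 84.3% of the gene's level at dose 0, gave -0.12 ± 0.13 (limma adjusted p = 0.422). The minor one, 124861400 to 124861469, fell from 30.5 ± 1.76 to 20.4 ± 0.901 RPM (-0.56 ± 0.12, limma adjusted p = 0.000399). VISTA was level apart from a dip: 60.2 and 61.5 RPM at dose 0, 46.3 and 51.1 RPM at 100 ng/ml (-0.32 ± 0.09, limma adjusted p = 0.0148; 0.0612, 0.0872 and 0.128 without dose 0 library 1, dose 0 library 2 or 100 ng/ml library 1), 60.7 and 63.7 RPM at 1000 ng/ml and 58.5, 57.1 and 65.9 RPM at the top dose (-0.01 ± 0.08, adjusted p = 0.919). The 2 tables were normalized separately, so the rise of VISTA in the hybridoma and its level course in CD4 cells stand side by side without a test.

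**Figure D2:**
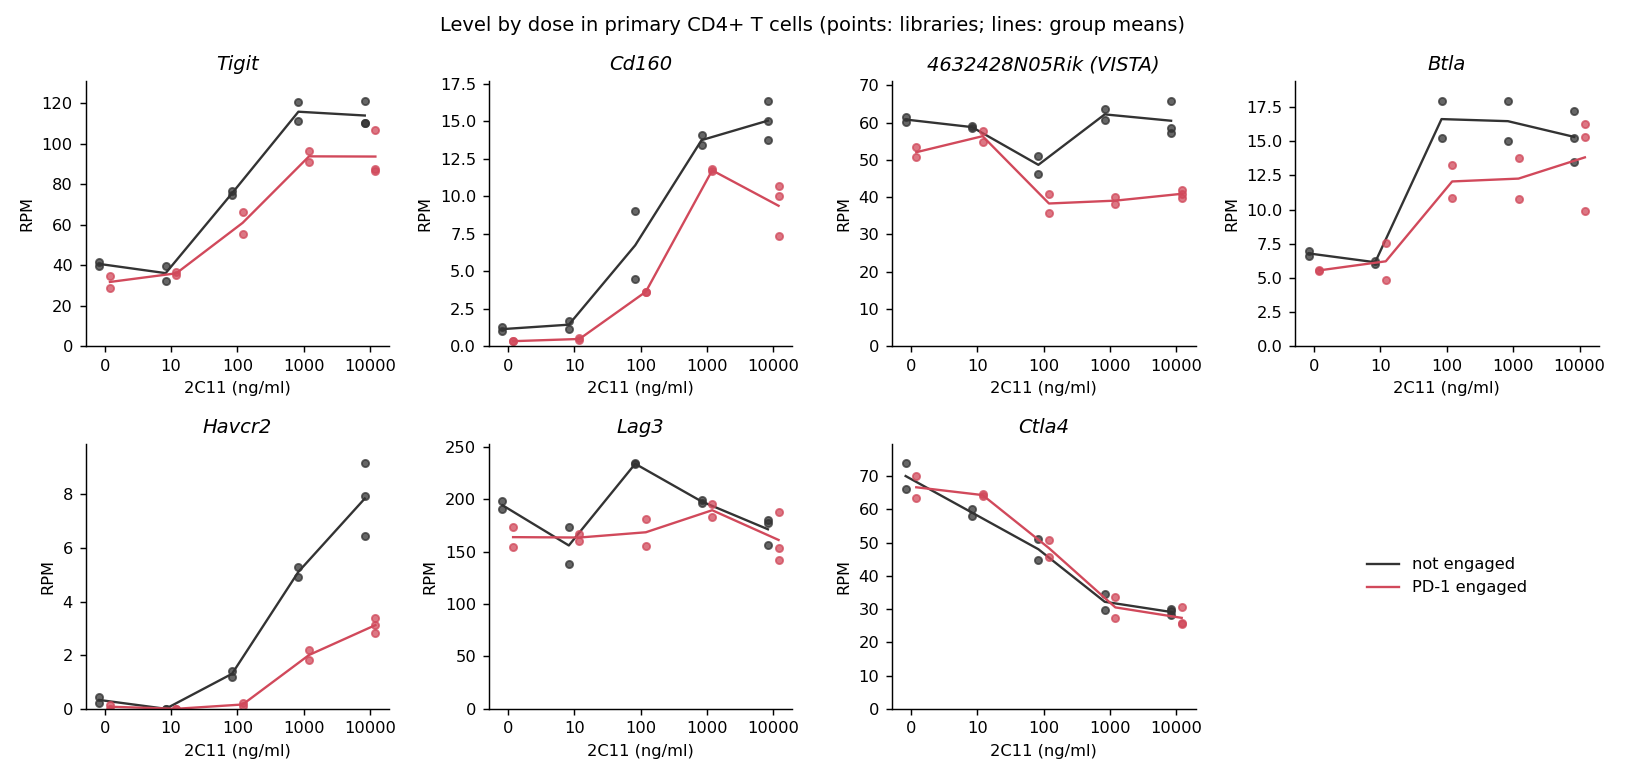
Level (RPM, y axis from 0) against 2C11 dose (ng/ml, equally spaced doses) in primary CD4+ T cells, unengaged (black) and PD-1 engaged (red). Points are libraries and lines join group means. In unengaged cells Havcr2, Cd160, Tigit and Btla lie above dose 0 from 100 ng/ml on. By group means Btla rises no further after 100 ng/ml and Tigit no further after 1000 ng/ml, and Ctla4 falls from 70.0 to 29.1 RPM. VISTA gives 57.1 to 65.9 RPM without and 39.8 to 42.0 RPM with engagement at 10000 ng/ml.

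No member was called at 10 ng/ml (background 0%; 425 of all genes at an unadjusted p under 0.05; edgeR 0 genes called). At 100 ng/ml 6 of 7 were called (background 26.4%): Cd160 (1.79 ± 0.23), Btla (1.18 ± 0.21), Tigit (0.88 ± 0.12) and Havcr2 (0.80 ± 0.20) higher, Ctla4 (-0.54 ± 0.12) and VISTA lower. The Havcr2 call was lost without dose 0 library 2 (0.69, limma adjusted p = 0.0689) and with quantile normalization (0.43, 0.14), and the Ctla4 call without 100 ng/ml library 2 (-0.44, 0.0509). The 1964 genes called higher and 737 lower became 1433 and 1385 with quantile normalization. At 1000 ng/ml the same 4 were higher and Ctla4 lower (-1.10 ± 0.12), with a background of 61%. By interpolation the half-maximal doses were 29.4 ng/ml for Btla, 110.6 ng/ml for Tigit, 156 ng/ml for Cd160 and 538 ng/ml for Havcr2. Leaving out 1 library gave 26.0 to 34.5, 99.6 to 117, 75.9 to 246 and 441 to 665 ng/ml, so that Btla came first and Havcr2 last in all of these fits while Tigit and Cd160 could not be ordered. The Cd160 limits came from leaving out unengaged library 1 (75.9 ng/ml) or 2 (246 ng/ml) at 100 ng/ml.

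**Figure D3:**
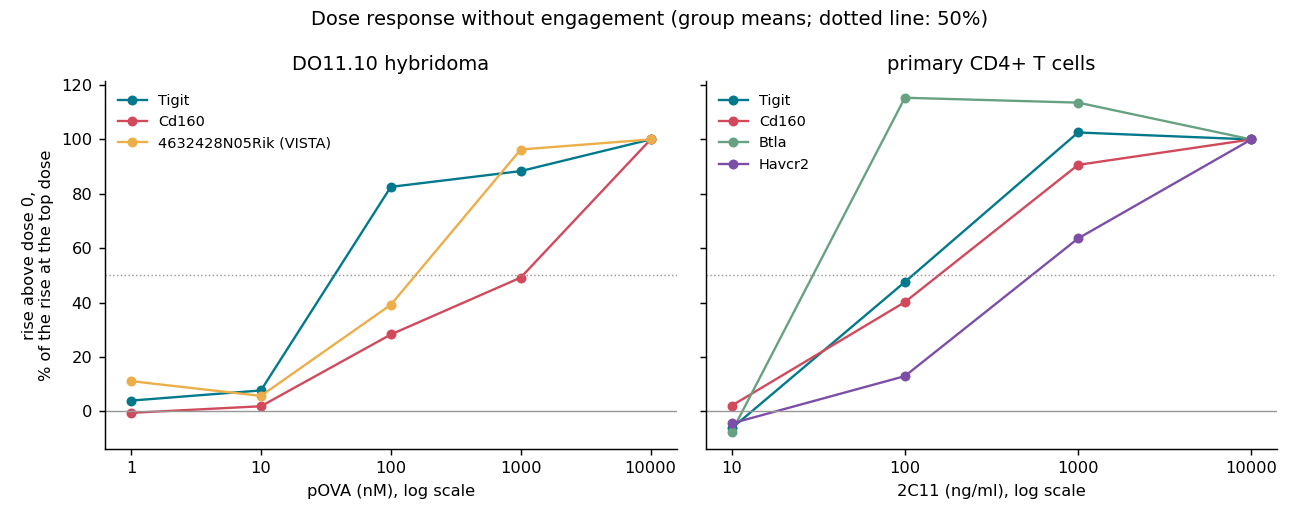
Rise above dose 0 without PD-1 engagement, in percent of the rise at the top dose (y axis), against dose (log scale; pOVA in nM on the left, 2C11 in ng/ml on the right), from group means, for members whose top-dose mean was at least 2 times that of dose 0. In the hybridoma Tigit reaches 82.6% at 100 nM while Cd160 is at 28.3%, and in CD4 cells Btla is above 100% at 100 ng/ml while Havcr2 is at 13.0%.

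PD-1 engagement in CD4 cells, averaged over the 4 stimulated doses, went with lower levels of Havcr2, Cd160, VISTA, Btla and Tigit, and with no call for Lag3 or Ctla4. These calls lie within a broad shift: 41.2% of all genes were called lower and 4.48% higher, and the median of all genes was -0.14 on the log2 scale. With quantile normalization the split was 1440 higher and 1301 lower, and with edgeR's TMM scaling 1624 higher and 1335 lower, in place of 458 and 4205. Relative to the median of all genes the members lay at -0.63 (Havcr2), -0.42 (Cd160), -0.26 (VISTA), -0.11 (Btla), -0.08 (Tigit), 0.01 (Lag3) and 0.13 (Ctla4). By cluster, 4 of 10 were called lower, those of Havcr2, Cd160, VISTA and Tigit and none of the 3 of Btla or the 2 of Lag3, against 35.2% of all clusters in either direction.

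Havcr2 fell by 0.78 ± 0.10 (limma adjusted p = 1.11e-05). Its engaged libraries gave 0.226 and 0.095 RPM at 100 ng/ml (1 tag each), 1.80 and 2.21 RPM at 1000 ng/ml and 3.15, 3.38 and 2.85 RPM at 10000 ng/ml. All lay below the unengaged libraries of their dose, by 0.99 ± 0.20, 1.03 ± 0.20 and 1.09 ± 0.16 on the log2 scale (limma -0.99, -1.03 and -1.09; adjusted p = 0.00125, 0.00207 and 0.000788). Under edgeR the averaged call was lost (-1.34, adjusted p = 1.00), in a fit where the 10 ng/ml groups with no tag enter the average.

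VISTA fell by 0.40 ± 0.04 (limma adjusted p = 4.1e-06), and this call held in all 26 alternative fits (-0.43 to -0.21). At 1000 ng/ml the engaged libraries gave 40.0 and 38.2 RPM against 60.7 and 63.7 RPM, and at 10000 ng/ml 42.0, 39.8 and 40.9 RPM against 58.5, 57.1 and 65.9 RPM, with no overlap. The log2 differences there were -0.66 ± 0.09 and -0.55 ± 0.07 (limma adjusted p = 0.000288 and 0.000371), and at 100 ng/ml -0.34 ± 0.09 (0.00759), where the value was -0.01 with quantile normalization (0.97) and -0.02 with edgeR (0.888), and the call was lost without unengaged library 2 (0.107) or engaged library 1 (0.1). In engaged libraries the top dose was called lower than dose 0 (-0.34 ± 0.08, limma adjusted p = 0.00148), so that VISTA and Ctla4 were the members called lower there. Lag3 was called lower too with quantile normalization (-0.30, adjusted p = 0.0118). Cd160 fell by 0.56 ± 0.11 (limma adjusted p = 0.000513), with 3.62 and 3.63 RPM at 100 ng/ml, 11.7 and 11.8 RPM at 1000 ng/ml and 10.7, 10.0 and 7.37 RPM at 10000 ng/ml in engaged libraries, below the unengaged ones at every stimulated dose. Of the single doses, 100 and 10000 ng/ml were called (limma -0.67 and -0.64; adjusted p = 0.0249 and 0.0369). At 100 ng/ml the Cd160 call was lost with quantile normalization (-0.45, limma adjusted p = 0.14), with edgeR (-0.64, 0.108), and without unengaged library 2 (-0.24, 0.483) or either engaged library (0.0926 and 0.0664). At 10000 ng/ml it was lost without any 1 of the 3 unengaged libraries (0.0929, 0.0527 and 0.146) or without engaged library 2 or 3 (0.0792 and 0.177), with differences from -0.70 to -0.50.

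Tigit fell by 0.22 ± 0.06 (limma adjusted p = 0.00473) and Btla by 0.25 ± 0.10 (0.0471). Neither call held with quantile normalization (Tigit -0.05, limma adjusted p = 0.56; Btla -0.10, 0.421) or edgeR (Tigit -0.07, 0.422; Btla -0.09, 0.496). The Btla call was also lost in 10 of the 18 fits that leave out 1 library (adjusted p up to 0.151). Those libraries were, unengaged, both at 10 ng/ml, library 2 at 100 and at 1000 ng/ml and libraries 1 and 2 at 10000 ng/ml, and, engaged, library 1 at 10 and at 100 ng/ml, library 2 at 1000 ng/ml and library 3 at 10000 ng/ml. Tigit gave 55.4 and 66.5 RPM at 100 ng/ml, 96.7 and 90.9 RPM at 1000 ng/ml and 106.9, 87.7 and 86.4 RPM at 10000 ng/ml in engaged libraries, each group below its unengaged counterpart. Of the single doses, 100 ng/ml was called for Tigit (limma -0.31, adjusted p = 0.0494), a call lost without any 1 of its libraries but engaged library 2, and its value was 0.0063 under quantile normalization. Lag3 gave -0.14 ± 0.06 (limma adjusted p = 0.0537), and was called lower at 100 ng/ml alone among the doses, with 155.6 and 181.7 RPM against 233.7 and 234.5 (-0.47 ± 0.12, adjusted p = 0.00495; -0.28, 0.0776 with quantile normalization, -0.16, 0.335 with edgeR, and -0.36, 0.0703 without engaged library 1). Ctla4 gave -0.01 ± 0.06 (limma adjusted p = 0.903), with a sign that turned under quantile normalization (0.17, 0.0653) and edgeR (0.15, 0.0956), while that of Lag3 turned under edgeR (0.02, 0.842).

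Engaged CD4 cells already differed at dose 0, where 14.4% of genes were called (78 higher and 1389 lower, but 98 and 32 with quantile normalization). No member was called there, but Cd160 gave 0.348 and 0.307 RPM engaged against 1.00 and 1.26 RPM unengaged (-0.68 ± 0.23, limma adjusted p = 0.0503; -0.98, 0.0213 with a pseudocount of 0.5 RPM), and Tigit 34.7 and 28.7 against 41.7 and 39.5 RPM (-0.35 ± 0.12, adjusted p = 0.0567). The engagement effect under stimulation minus that at dose 0 was called for no member (background 0.0196%), with values from -0.47 ± 0.22 for Havcr2 (limma adjusted p = 0.58) to 0.13 ± 0.13 for Tigit. At single doses the number of members called lower was 0 at 10 ng/ml (background 0.754%), 5 at 100 ng/ml (39.2%), 2 at 1000 ng/ml (22.7%) and 3 at 10000 ng/ml (8.48%). Those called at the top dose were Havcr2, VISTA and Cd160. Over all genes the calls at 100 ng/ml were 195 higher and 3808 lower (842 and 867 with quantile normalization), and at 1000 ng/ml 337 and 1978 (843 and 634).

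Markers of other cells moved with engagement in the CD4 libraries. All 5 listed markers of antigen-presenting cells were measured, and 4 of them were called higher. Of 5 B cell markers measured 3 were higher (median log2 difference 0.39), and of 8 T cell markers 6 were lower and 1 was higher (median -0.16). Over all genes 41.2% were called lower and 4.48% higher, with a median of -0.14, close to that of the T cell markers. The sum of the antigen-presenting cell markers was 493 to 808 RPM in unengaged and 733 to 1083 RPM in engaged libraries at the top dose, and that of the B cell markers 63.7 to 97.6 and 96.1 to 119 RPM. With the mean level of the B cell markers as a covariate the 5 called members stayed called (Havcr2 -0.74, Cd160 -0.60, VISTA -0.41, Btla -0.40 and Tigit -0.17; limma adjusted p up to 0.0486), and Lag3 was called too (-0.20, adjusted p = 0.0193). In that fit 366 of all genes were called higher and 4742 lower, with a median log2 difference of -0.20. Lag3 lay close to this median, and the Tigit difference was smaller in size than it. The part of B cells and antigen-presenting cells in the shift of all genes was not tested. Several members are also known from natural killer cells, and the defining markers Ncr1, Klrb1c and Klrd1 had no cluster in either table. The 4 cytotoxic genes measured in CD4 cells (Fasl, Gzma, Gzmb and Nkg7) summed to 91.4 to 121 RPM at dose 0, 281 to 290 RPM at the top dose and 163 to 186 RPM at the engaged top dose. Of 7 myeloid markers 1 was in the CD4 table, Cst3, and it was not called under engagement. Of 2 CD8 T cell markers 1 was in the CD4 table, Cd8b1, at 9.05 to 16.2 RPM over the libraries. It was not called under engagement either (-0.18 ± 0.09, limma adjusted p = 0.107).

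**Figure D4:**
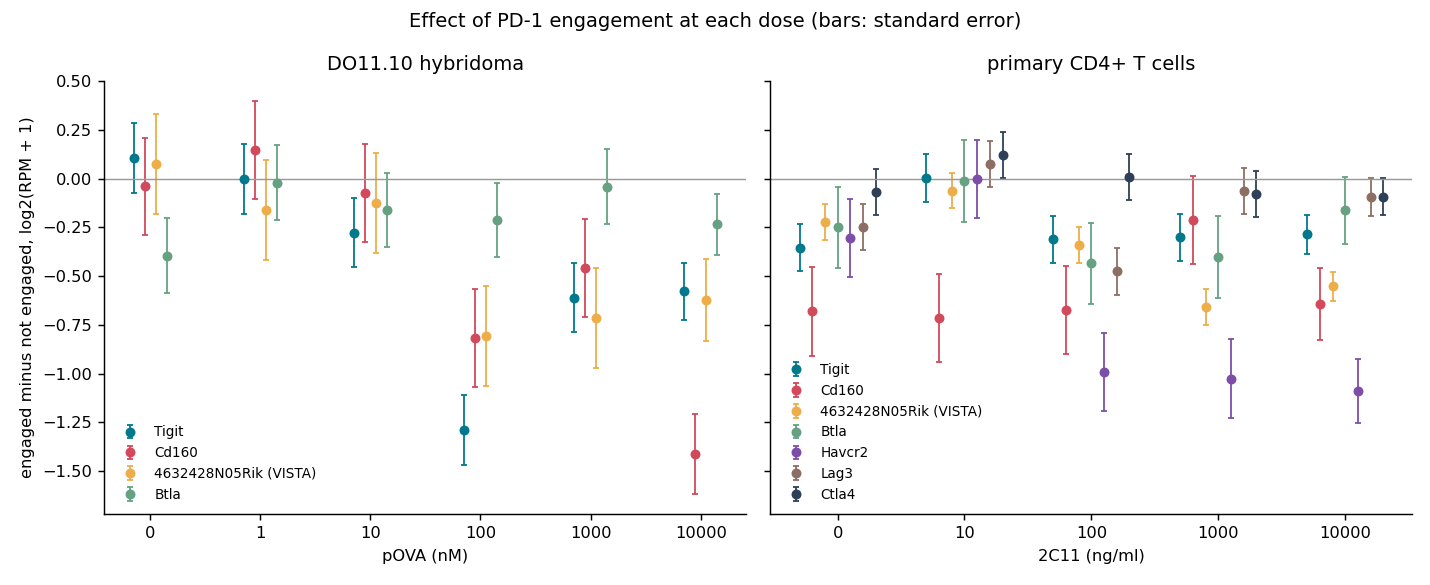
PD-1 engaged minus unengaged level on the log2(RPM + 1) scale (y axis) at each dose (x axis; pOVA in nM on the left, 2C11 in ng/ml on the right), for each member, with standard errors from the fit. In the hybridoma Tigit is lowest at 100 nM (-1.29) and Cd160 at 10000 nM (-1.41), and in CD4 cells Havcr2 lies near -1 from 100 ng/ml on while Ctla4 stays near 0.

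The response to the top dose persisted under engagement in CD4 cells. Cd160 (2.95 ± 0.21), Havcr2 (1.94 ± 0.18), Tigit (1.53 ± 0.11) and Btla (1.15 ± 0.19) were called higher and Ctla4 (-1.26 ± 0.11) and VISTA lower against engaged dose 0, where 38.4% of genes were called higher and 26.4% lower (3923 and 2701 genes; 3277 and 3399 with quantile normalization). The engaged response minus the unengaged one was called for Havcr2, -0.79 ± 0.26 (limma adjusted p = 0.0455, background 15.7%, with 1522 genes higher and 78 lower, or 244 and 201 with quantile normalization), and not for VISTA, -0.33 ± 0.12 (0.0634), where quantile normalization (-0.55, 0.0136) and edgeR (-0.58, 0.0135) called it. For Cd160, Tigit, Btla and Ctla4 the engaged and unengaged responses differed by less than 0.10 on the log2 scale, within 1 SE. The median of all genes was 0.24, and relative to it these members lay at -0.20, -0.17, -0.15 and -0.26. By summed tags the top dose was 13.2 times dose 0 for unengaged Cd160 (95% counting interval 8.84 to 20.5). With engagement it was 29.3 times (12.4 to 91.0), from 5 tags at dose 0. The Havcr2 difference rests on dose 0 levels of 8 tags unengaged and 1 tag engaged, and edgeR gave it the opposite sign (0.70, adjusted p = 0.736). The call was lost in 9 of the 10 fits that leave out 1 library, with differences from -0.91 to -0.68. By group means and without a test, the summed rise was smaller in engaged libraries by 69.3% for Havcr2, 37.2% for Btla, 36.3% for Cd160 and 31.9% for Tigit. Measured from each arm's own dose 0, these became 61.5%, 19.1%, 26.3% and 12%.

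**Figure D5:**
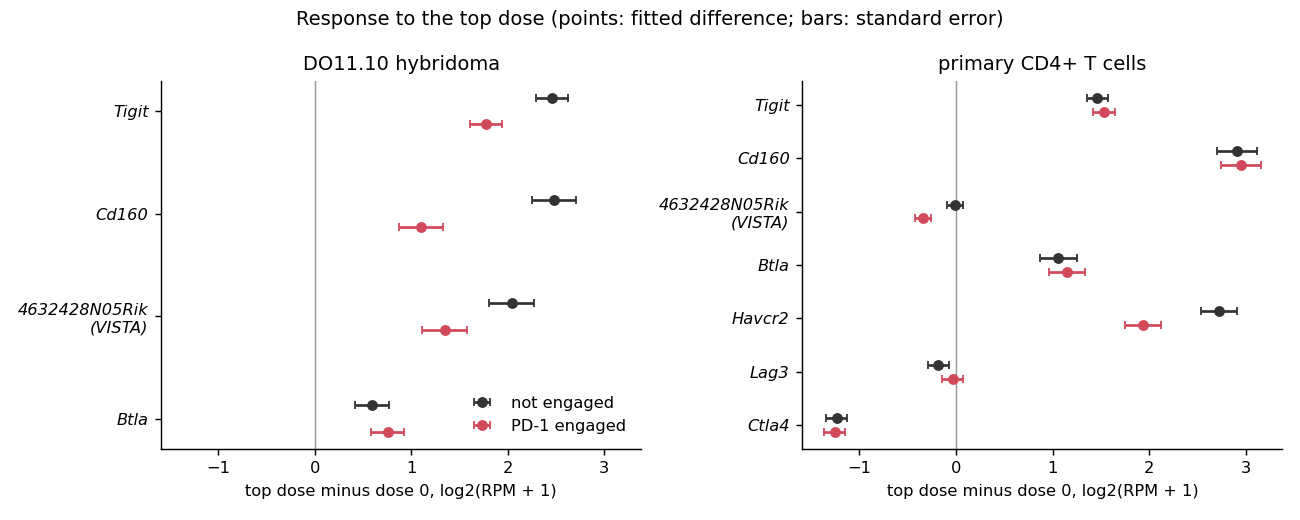
Top dose minus dose 0 on the log2(RPM + 1) scale (x axis) for each member, unengaged (black) and PD-1 engaged (red), with standard errors from the fit. In the hybridoma the engaged responses of Tigit, Cd160 and VISTA are smaller, by 0.68, 1.37 and 0.70, and none of these differences was called. In CD4 cells the pairs lie close together except for Havcr2 and VISTA. The median engaged minus unengaged response of all CD4 genes was 0.24.

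Group means of the members were compared with those of all other named genes as a description, with Pearson's r of log2(RPM + 1) over the 12 hybridoma or 10 CD4 groups, which share libraries, depth and controls. In the hybridoma, Tigit was most like Sult2b1 (r = 0.991), Hivep2 (0.990) and Crtam (0.989). Cd160 was most like the cytokine gene Il2 (0.989), the chemokine gene Xcl1 (0.983) and Phf6 (0.981). VISTA was most like Camk2d, the calcium channel gene Orai1 and the CD40 ligand gene Cd40lg (0.991 for each), and Btla like Tmed5 (0.976), Rpl37 (0.975) and Depdc7 (0.974). In CD4 cells, Havcr2 was most like Map2k3 (0.995), the cytokine gene Csf2 (0.995) and Rgs1 (0.991), and Tigit like Bcl2a1d (0.997), Dusp6 (0.997) and Gmppb (0.996). Cd160 was most like Usp14 (0.997), Gmppb (0.994) and Rgs16 (0.994), and Btla like Egr3 (0.985), Cfl1 (0.984) and Nab2 (0.983). Ctla4 was most like Matk (0.995), Klhl3 (0.995) and Lgals3 (0.994). The genes nearest to Lag3 and VISTA were less alike: Bcap31 (0.939), Il4ra (0.920) and Atp6v1a (0.916) for the first, Fam107b (0.939), Camk4 (0.927) and Enc1 (0.917) for the second. Among the members in CD4 cells, Tigit and Cd160 followed each other most closely (0.990), and both ran opposite to Ctla4 (-0.939 and -0.944). In the hybridoma all pairs of the 4 members lay between 0.893 and 0.964.

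Ligands of the receptors were measured for 5 of 16 listed genes in the hybridoma and 8 in CD4 cells. Lists are given with their median log2 difference, beside -0.18 (hybridoma) and -0.15 (CD4) over all genes at the top dose, and -0.003 and -0.14 under engagement. Of all genes at the top dose, 8.09% were called higher and 20.8% lower in the hybridoma, and 27.5% and 40.1% in CD4 cells. Under engagement these shares were 0.0594% and 0.872% in the hybridoma, and 4.48% and 41.2% in CD4 cells. In CD4 cells 5 of 8 were called lower at the top dose and none higher (median -0.83): Selplg, a VISTA ligand, went from 677.6 to 160.4 RPM (-2.07 ± 0.08), Lgals3 from 38.0 to 16.9 RPM (-1.13 ± 0.13), Lgals9 from 122.3 to 60.2 RPM (-1.01 ± 0.10) and Tnfrsf14, the ligand of Btla and Cd160, from 148.9 to 79.8 RPM (-0.89 ± 0.11). In the hybridoma (median 0.02) Tnfrsf14 was called higher (0.63 ± 0.16) and Selplg lower (-0.84 ± 0.21). Under engagement, Pvr, the Tigit ligand, was the 1 ligand called lower in CD4 cells (-0.34 ± 0.08, limma adjusted p = 0.00173; median of the list -0.04), and no ligand was called in the hybridoma (median -0.01).

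Among 8 opposing or related receptors, Tnfsf14 (LIGHT), which also binds Tnfrsf14, went from 1.34 to 38.2 RPM in CD4 cells at the top dose (4.07 ± 0.18), and was the 1 of 8 called higher there while 5 were called lower, among them Cd96 (-0.94 ± 0.11), Cd4 (-0.83 ± 0.09) and Cd28 (-0.77 ± 0.08). The median of the list was -0.42, where 27.5% of all genes were called higher and 40.1% lower. In the hybridoma 3 of 6 were called higher and none lower: Cd28 (1.42 ± 0.18), Tnfsf14 (1.13 ± 0.24) and Cd2 (0.70 ± 0.18), with a median of 0.14. There 8.09% of all genes were called higher and 20.8% lower. Tnfsf14 was called lower under engagement in both systems (hybridoma -0.49 ± 0.11, limma adjusted p = 0.0372; CD4 -0.64 ± 0.10, 6.8e-05), as 1 of 6 (median -0.09) and 1 of 4 called lower among 8 (median -0.12). Of all genes 0.872% and 41.2% were called lower.

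Of 15 signalling and trafficking partners 14 were measured in each system. At the top dose 1 was called higher and 6 lower in the hybridoma (median -0.32), and 1 higher and 7 lower in CD4 cells (median -0.29), with Pik3r1, a regulatory subunit of PI3 kinase, at -0.77 ± 0.13 and -1.61 ± 0.15. The shares of all genes called higher and lower were 8.09% and 20.8% in the hybridoma, and 27.5% and 40.1% in CD4 cells. Lrba and Def6, which act in the return of CTLA-4 to the cell surface, were lower in CD4 cells by -0.54 ± 0.14 and -1.05 ± 0.11. Over all genes, engagement gave 41.2% called lower in CD4 cells, a split that became 1440 higher and 1301 lower with quantile normalization, and 0.872% in the hybridoma. Of the partners, 11 of 14 were called lower in CD4 cells (median -0.24) and 1 in the hybridoma (median -0.01), Adam10 (-0.28 ± 0.06, limma adjusted p = 0.0257), a protease that cleaves several surface receptors.

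Transcription factors linked to these receptors were mostly higher at the top dose. In the hybridoma 6 of 11 measured were called higher and 2 lower at the top dose (median 1.92), and in CD4 cells 10 of 15 higher and 4 lower (median 0.90). Of all genes 8.09% were called higher and 20.8% lower in the hybridoma, and 27.5% and 40.1% in CD4 cells. Egr2, Egr3, Nr4a1 and Nr4a3, factors of the early TCR response, rose in the hybridoma by 6.50 ± 0.23, 6.48 ± 0.18, 5.33 ± 0.24 and 4.04 ± 0.21 and in CD4 cells by 5.55 ± 0.26, 4.84 ± 0.15, 3.91 ± 0.15 and 5.12 ± 0.18. Under engagement 5 of 11 were called lower in the hybridoma and 11 of 15 in CD4 cells, with none higher (medians -0.31 and -0.38), beside 0.872% and 41.2% of all genes called lower. Egr2 lay lower by -0.999 ± 0.11 in the hybridoma and -0.81 ± 0.13 in CD4 cells. Tbx21, a factor of type-1 helper cells, was lower in engaged CD4 cells by -0.64 ± 0.05.

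Of 15 further inhibitory receptors and adaptors, 8 were measured in the hybridoma and 10 in CD4 cells. Pdcd1, which encodes PD-1, rose in both (hybridoma 58.6 to 214.1 RPM, 1.85 ± 0.17; CD4 15.0 to 82.7 RPM, 2.39 ± 0.12). In the hybridoma it was 1 of 8 called higher with 4 lower (median -0.62), and in CD4 cells Cd200 (2.07 ± 0.14) and Lair1 (2.02 ± 0.15) rose with it while 7 of 10 fell (median -0.82), among them Sit1 (-2.19 ± 0.13). Over all genes the shares higher and lower were 8.09% and 20.8% in the hybridoma, and 27.5% and 40.1% in CD4 cells. Under engagement 4 of 10 were called lower in CD4 cells (median -0.14), near the 41.2% of all genes called lower (median -0.14). These were Lair1 (-0.54 ± 0.08), Pdcd1 (-0.51 ± 0.06), Cd200 (-0.40 ± 0.07) and Cd6 (-0.16 ± 0.06), the last close to the median of all genes. In the hybridoma (median 0.09) engagement went with higher Cd200r1 (0.41 ± 0.07, limma adjusted p = 0.0047), where 0.0594% of all genes were called higher. Antigen lowered this gene there from 12.9 to 2.54 RPM.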

How the data were processed

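The authors deposited 1 table per system with values in RPM (rpm, tags per M) for each tag cluster and library. BWA 0.7.12, HISAT2 2.0.5 and mm9 are named in the submitters' processing notes, and no source used here says how clusters were called. Low values were whole multiples of 1 step per library, and at least 99.98% of the values gave whole tags within 0.1 tag. Values were summed per gene over clusters that name 1 symbol. For each table separately, limma 3.58.1 with a trend (R 4.3.3) was run on log2(RPM + 1), a fold scale on which low genes change less, with group means as coefficients. Genes needed 1 RPM or more in 2 or more libraries. Two-sided p-values were Benjamini-Hochberg adjusted over all genes, and under 0.05 is a call. edgeR 4.0.16 quasi-likelihood fits on recovered tags were an alternative. The main fit, the edgeR fit and a fit with the replicate number as a block were tested on simulated data. This was done for the unengaged top dose against dose 0 only. The other alternatives and the engagement contrasts, paired ones among them, were not tested in this way. In the hybridoma, deviations of engaged and unengaged libraries of 1 dose and number correlated at 0.256 to 0.759, every pair over 0.1, so fits that pair them were added. The highest value was at dose 0, where both libraries of number 2 were rich in B cell markers. Unengaged libraries of number 1 at different doses correlated at -0.24 to 0.33, which overlaps the range of the pairs. Whether hybridoma libraries of 1 number belong together is not given in the labels. The members and gene lists were chosen with earlier results of these data known. The named genes are the 7 members, the 3 genes most like each, and at most 4 genes of each list and contrast by size.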

Additional observations from a re-analysis of the deposited data

Results flagged for a closer look

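In CD4 cells the response of Havcr2 to the top dose was smaller with PD-1 engagement than without, by -0.79 on the log2(RPM + 1) scale (limma adjusted p = 0.0455), the only member whose difference between the arms was called in the main fit of either system. It was called in 1 of 10 fits that left out 1 library (adjusted p from 0.0304 to 0.182) and in 2 of 8 other alternatives. The dose 0 levels behind it were 8 tags unengaged and 1 tag engaged, and edgeR gave the opposite sign (0.70). VISTA was not called in the main fit (-0.33, limma adjusted p = 0.0634). It was called with quantile normalization (-0.55, limma adjusted p = 0.0136) and with edgeR (-0.58, adjusted p = 0.0135), with the same sign. Groups of 2 or 3 libraries were not tested for single libraries far from the rest.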

How the results depend on the processing

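Of 220 alternative counts of called members, 212 stayed within 1.5 times the reported one. The count called lower under engagement in the hybridoma was 3, and 1 to 3 when 1 library was left out. In CD4 cells it was 5, and became 3 with quantile normalization and 2 with edgeR, while the count called lower at the top dose, 1, became 2 with quantile normalization. The difference of Tigit at 100 ng/ml turned to 0.0063 with quantile normalization (adjusted p = 0.98) and to 0.011 with edgeR (0.971), and that of Havcr2 between the arms to 0.70 with edgeR. The cause was not tested. Of 2966 alternative values of single members, 2687 kept direction and call, 107 lost and 33 gained a call, 3 reversed as given, and 136 changed sign without a call. Without unengaged dose 0 library 1 of the hybridoma, 840 genes were called at 1 nM in place of 0 and 694 at 10 nM in place of 3. With the replicate block the CD4 call for Havcr2 between the arms was lost (adjusted p = 0.0792), Tigit at dose 0 was called (0.041), and no other CD4 call of a member changed. CD4 pairs correlated at 0.0129 to 0.255, each less than the lowest hybridoma pair (0.256), so they were not treated as pairs. Those at 1000 ng/ml (0.248) and of number 2 at 10000 ng/ml (0.255) came close to it. Whether CD4 libraries of 1 number belong together is not given in the labels. The block gave 494 genes higher and 4424 lower under engagement in place of 458 and 4205. Adding clusters that name several symbols was not run. Depth limits Cd160 in the hybridoma up to 10 nM (0 to 4 tags a library) and Havcr2 in CD4 cells up to 10 ng/ml (0 to 6 tags).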
